A study of Homo sapiens
Mus musculus and Homo sapiens and Mus musculus with 7 samples.

Results

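RNA on V5-tagged ribosomes was compared with RNA from whole cells of a mouse fibroblast line grown alone. The samples were chosen by their labels and were 3 of the 7 libraries of the series. Of these, 2 were made from immunoprecipitates (IPs) with an antibody against the V5 tag. The other 1 was made from input RNA, taken without an IP, of an NIH3T3 monoculture. The V5 IPs came from a co-culture in which mouse NIH3T3 cells expressed RPL22-V5 and human HEK293 cells expressed RPL22-HA. HEK293 is a human embryonic kidney line. The monoculture is labelled only as NIH3T3. The labels do not say whether those cells carried the tag. The first V5 IP was made on lysate 1 and the second on lysate 4, and the labels do not say how these lysates relate. Genes were taken by chromosome: 54752 of the 113473 genes listed lie on mouse chromosomes, and 8221 of those had enough counts to be tested. The 2 HA IPs and the single co-culture input were in the same fit, where the spread came from the V5 and the HA pair. Their values stand beside those of the 3 libraries compared.

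RPL22 is a protein of the large subunit of cytosolic ribosomes. An antibody against a tag on it pulls down these ribosomes with the mRNAs being translated on them, so that the RNA of the tagged cells can be read out of a mixture. RNA transcribed inside mitochondria is translated there by a separate set of ribosomes, and RNA that stays in the nucleus is not translated at all. All libraries were read through SMART-seq cDNA, and how well that step captured each kind of RNA, short genes included, was not measured. Within that limit, the comparison sets RNA on V5 ribosomes of the NIH3T3 cells in co-culture against RNA of whole NIH3T3 cells grown alone. The libraries therefore differ at least in the IP and in the presence of HEK293 cells, and may differ in the tag and between cultures. This comparison alone cannot tell these apart. In bulk RNA, fewer cells of a type and less RNA per cell cannot be told apart either.

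The V5 IPs held 2063885 and 1826127 counts, of which 93.8% and 95.5% lay on mouse genes. The NIH3T3 library held 1999078 counts, 99.97% of them on mouse genes. Values below are CPM, counts per 1e6 mouse counts of a library, unless given as counts. The co-culture input and the HA IPs were shallower, with 158572 to 759701 mouse counts. At least 1 count was found for 12210 and 12081 mouse genes in the V5 IPs and for 13690 in NIH3T3. All 3 libraries shared 10061 detected genes. A further 426 were found in both V5 IPs and not in NIH3T3, and 1772 in NIH3T3 and in neither V5 IP. Of 5275 genes with at least 20 counts in NIH3T3, 5 had 0 counts in both V5 IPs. Mouse identifiers had no gene symbols here, so fibroblast markers could not be looked up and genes are given by position, as the count files list it. The labels and headers name no mouse genome build.

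Most mouse RNA stood at a similar level on V5 ribosomes and in NIH3T3 cells. Among 2530 genes with at least 50 CPM, both V5 IPs were within 2-fold of NIH3T3 for 1807 (71.4%). Both were at least 2-fold lower for 231 (9.13%) and at least 2-fold higher for 139 (5.49%). They lay on opposite sides past 2-fold for 1 gene. The V5 IPs themselves differed by a median of 0.24 on the log2 scale, and 4.23% of these genes were more than 2-fold apart. Each V5 IP differed from NIH3T3 by about as much as the other, with medians of 0.52 and 0.52 and 21.3% and 21.9% of genes past 2-fold.

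Across all 8221 genes tested, 31 passed the test, 0.377% of them. The 2 that rose in V5 IPs were 0.0243% and the 29 that fell were 0.353%. Calls are by edgeR's quasi-likelihood test at a Benjamini-Hochberg adjusted p under 0.05. The fitted log2 difference, V5 IPs minus NIH3T3, had a median of 0.02 over all genes. At an unadjusted p under 0.05 there were 504 of the 8221 genes, where a share of 0.05 would be expected to pass with no difference at all. Of the 29 that fell, 10 lay on the mitochondrial chromosome, 7 were nuclear genes with 1 exon and 12 were nuclear genes with several exons. The number of calls depended on which libraries set the spread. A fit of only the V5 IPs and NIH3T3, with 1 residual degree of freedom, called 665 of 8321 genes (7.99%), 256 higher (3.08%) and 409 lower (4.92%), and all 31 were among them. With the first HA IP left out there were 648 calls, and with the second left out 628. With the first V5 IP left out there were 4 calls, and with the second left out 10.

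**Figure D1:**
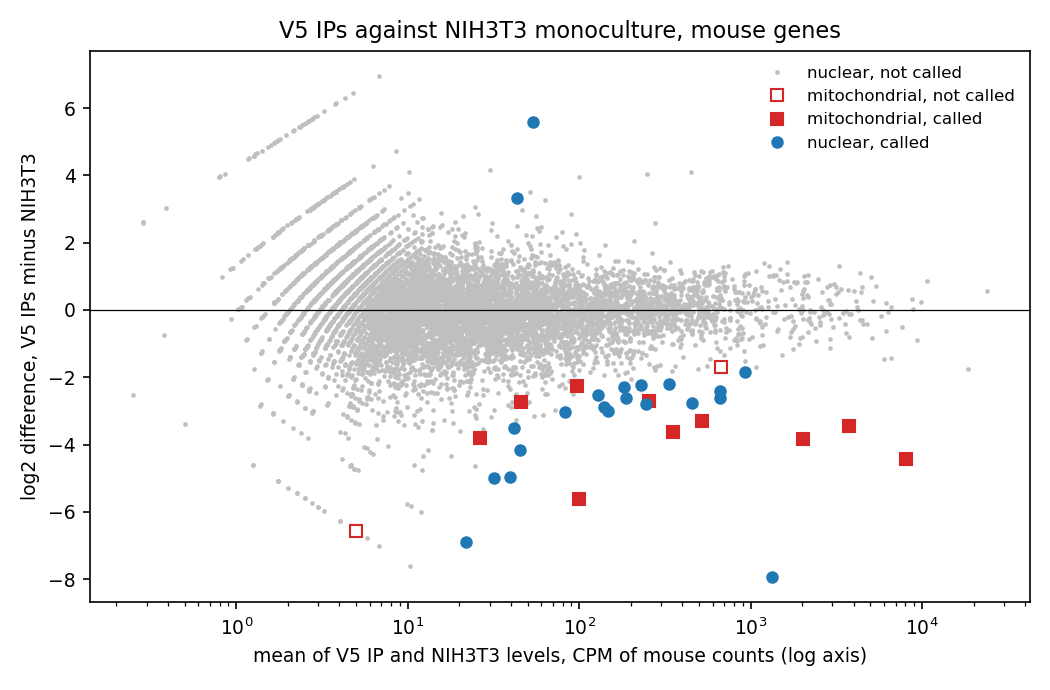
Fitted log2 difference of V5 IPs minus NIH3T3 (vertical axis) against the mean of the V5 IP and NIH3T3 levels in CPM of mouse counts (horizontal log axis), 1 point for each of the 8221 mouse genes tested. The 10 called mitochondrial genes (filled red squares) and 19 called nuclear genes (blue circles) lie below 0, and 2 called nuclear genes lie above it.

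RNA from the mitochondrial chromosome was the group that stood lowest. This chromosome carries genes for ribosomal RNAs, transfer RNAs and proteins of the respiratory chain, all of them used inside the organelle. Mitochondrial genes took 4296 and 4089 counts in the V5 IPs, against 59271 counts in NIH3T3. Their share of mouse counts was 0.222% and 0.234% in the V5 IPs (0.228% ± 0.00877, SD, n = 2), against 2.97% in NIH3T3 (exact 95% interval 2.94 to 2.99%, counting error only). The NIH3T3 share was 12.99 times that of the V5 IPs, a difference of −2.74 percentage points, far more than the spread between the V5 IPs. No permutation test is given, since 2 libraries against 1 allow no exact one-sided p below 0.33. The share was 1.97% in the co-culture input and 2.12% ± 0.145 in the HA IPs (SD, n = 2), where mouse RNA has no matching tag. Which lysate the input matches is not given here.

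Of the 37 mitochondrial genes listed, 28 had counts in NIH3T3, several of them very few. No tally of directions is given for these 28, since having counts in NIH3T3 is what picked them. The filter on low counts kept 12 of the 37 for testing. It kept 3 of these, all under 200 bases, only through libraries other than the V5 IPs. Of the 12 tested, 10 fell, where 0.353% of all genes tested did. The most abundant, at 1094 to 2675 on the plus strand (1582 bases), had 715 and 775 CPM in the V5 IPs, against 15448 CPM in NIH3T3. The co-culture input held 9056 CPM of it. Its log2 difference was −4.43 (SE 0.44; edgeR adjusted p = 2.31e-07). It was also lower relative to its own chromosome, at 32.2% and 33.0% of mitochondrial counts in the V5 IPs and 52.1% in NIH3T3.

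The gene at 2751 to 3707 (957 bases) had 643 and 662 CPM in the V5 IPs, against 6869 CPM in NIH3T3 (log2 −3.45, SE 0.43; edgeR adjusted p = 1.26e-05). The gene at 14145 to 15288 (1144 bases) had 278 and 273 CPM in the V5 IPs, against 3758 CPM in NIH3T3 (log2 −3.83, SE 0.43; edgeR adjusted p = 2.42e-06). On both genes the V5 IPs differed little from each other. The co-culture input had 5672 CPM of the gene at 2751 and 2090 CPM of the gene at 14145, above the V5 IPs and below NIH3T3. The gene at 70 to 1024 (955 bases) had 93.5 and 104 CPM in the V5 IPs, against 937 CPM in NIH3T3 and 715 CPM in the co-culture input (log2 −3.30, SE 0.42). The gene at 3914 to 4951 (1038 bases) had 30.5 and 79.1 CPM in the V5 IPs, against 646 CPM in NIH3T3 and 554 CPM in the co-culture input (log2 −3.61, SE 0.48). The V5 IPs were further apart on that gene and still both far below NIH3T3.

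The short gene at 3772 to 3842 on the minus strand (ENSMUSG00000064343.1, 71 bases) fell most among the called mitochondrial genes. It had 9 and 6 counts in the V5 IPs, against 391 counts in NIH3T3, or 4.65 and 3.44 CPM against 196 CPM. The co-culture input lay between them at 35.5 CPM. Its log2 difference was −5.61 (SE 0.70; edgeR adjusted p = 1.26e-05). The 4 other called genes had log2 differences of −3.81 (15356 to 15422), −2.75 (13552 to 14070), −2.70 (10167 to 11544) and −2.27 (11742 to 13565). Of these, the gene at 11742 to 13565 was the least certain, with 20.2 and 48.2 CPM in the V5 IPs, against 159 CPM in NIH3T3 (edgeR adjusted p = 0.0439).

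The other 2 tested genes were not called. The gene at 5328 to 6872 (1545 bases) had 693 and 524 counts in the V5 IPs, against 2042 counts in NIH3T3 (log2 −1.69, SE 0.41; edgeR adjusted p = 0.0672). It was the mitochondrial gene with the smallest difference of the 12. The gene at 5192 to 5257 (66 bases) had 0 counts in both V5 IPs and 20 counts in NIH3T3 (edgeR adjusted p = 0.563). Little was seen of the stretch from 7013 to 10173, where 6 genes of at least 200 bases had 1 and 2 counts in the V5 IPs and 14 counts in NIH3T3. Without the first V5 IP 3 mitochondrial genes were called, and without the second 5. Reads were counted without strand, so RNA from the 2 strands of a gene cannot be told apart. None of the 12 tested genes shared more than 4.23% of its bases with another listed gene. In the stretch from 7013 to 10173, 1 gene shared 21.1%. These overlaps cover listed exons only, so they do not bound reads from the opposite strand of a gene.

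**Figure D2:**
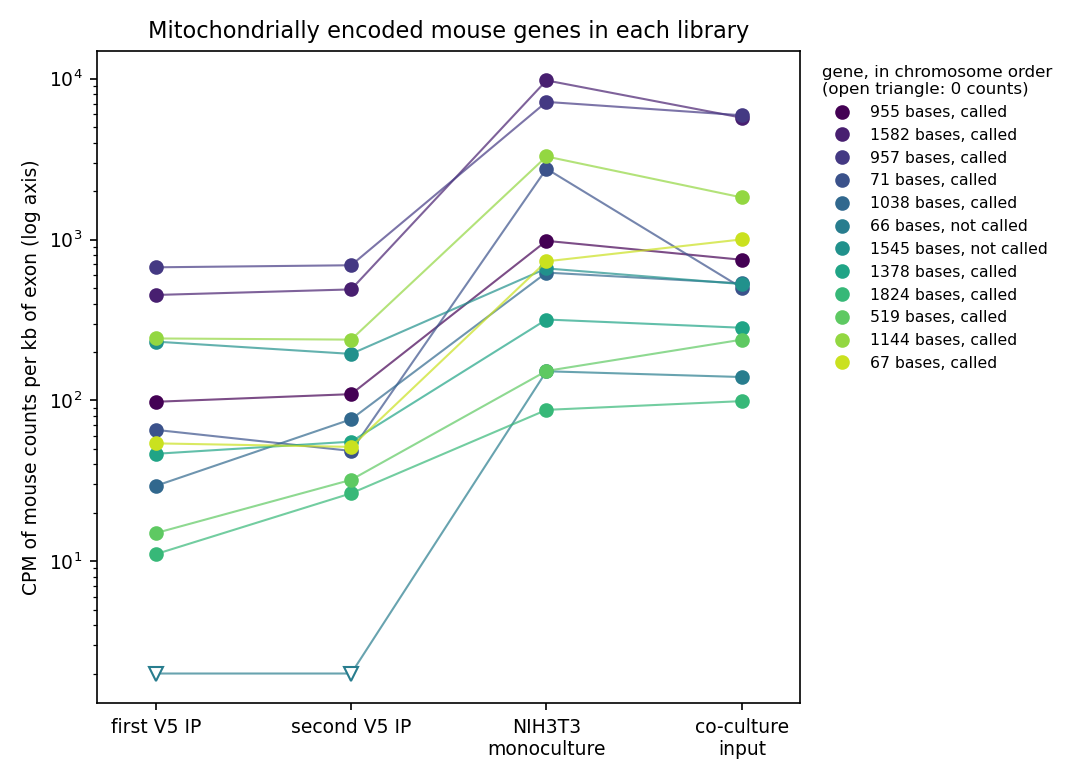
Level of each of the 12 tested mitochondrial genes in CPM of mouse counts per kb of exon (vertical log axis) in the first and second V5 IP, the NIH3T3 monoculture and the co-culture input, with 1 line per gene and open triangles for 0 counts. Every line is higher in NIH3T3 than in both V5 IPs, and the co-culture input lies nearer to NIH3T3 for most genes.

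Of 644 nuclear genes with 1 exon that were tested, 7 fell (1.09%), where 0.353% of all genes did. Several of the 7 were low in both V5 IPs and passed the filter on low counts through other libraries. The share of calls therefore depends on that filter and describes the tested genes only. The class as a whole did not stand lower, with a median log2 difference of 0.01. The largest difference of the 31 called genes was at chromosome 17, 39843013 to 39846341 (ENSMUSG00000097971.3, 3329 bases). It had 24 and 17 counts in the V5 IPs, against 5313 counts in NIH3T3, or 12.4 and 9.75 CPM against 2658 CPM. NIH3T3 was 239 times higher in pooled counts (exact interval 176 to 333, counting error only). The log2 difference was −7.95 (SE 0.51; edgeR adjusted p = 1.2e-11), and the gene was called in each of the 15 alternative settings that tested it. The co-culture input had 57.9 CPM and the HA IPs 75.7 and 77.1 CPM, so NIH3T3 stood apart from every library of the co-culture. The input minus NIH3T3 gave a log2 difference of −5.31 (edgeR adjusted p = 1.54e-05), and V5 IPs minus input gave −2.63 (edgeR adjusted p = 0.00416). In those comparisons 0.0365% and 0.815% of all genes were called.

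A gene on chromosome 19, 5795690 to 5802672 (6983 bases), followed a different order. It had 176 and 203 CPM in the V5 IPs, against 1131 CPM in NIH3T3 (log2 −2.63, SE 0.42; edgeR adjusted p = 0.000753). The co-culture input was lower still at 89.5 CPM, while the HA IPs had 1192 and 880 CPM, about the level of NIH3T3. The V5 IPs were thus below NIH3T3 and not below the co-culture input (log2 0.82, edgeR adjusted p = 0.658). Exons of other genes cover 13.8% of its bases, so a part of its counts is uncertain.

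The other 5 single-exon genes were lower in both V5 IPs than in NIH3T3 and than in the co-culture input. The gene on chromosome 1 at 24612775 to 24613119 (345 bases) had 1.03 and 2.87 CPM in the V5 IPs, against 62.0 CPM in NIH3T3 and 55.3 CPM in the co-culture input. Its difference from NIH3T3 was −4.99 on the log2 scale (SE 0.91; edgeR adjusted p = 0.00324). On chromosome 7, a gene of 168 bases at 144914470 to 144914637 had 2.58 and 2.29 CPM in the V5 IPs, against 77.1 CPM in NIH3T3 and 47.4 CPM in the input, a log2 difference of −4.97 (SE 0.87; edgeR adjusted p = 0.0022). On chromosome 8, a gene of 104 bases at 31149864 to 31149967 had 6.20 and 3.44 CPM in the V5 IPs, against 86.1 CPM in NIH3T3 and 35.5 CPM in the input, a log2 difference of −4.18 (SE 0.80; edgeR adjusted p = 0.00619). These 3 had 2 to 12 counts in the V5 IPs. Against the input the first and second of them were called (edgeR adjusted p = 0.00329 and 0.00739), and the third was not (0.0683). Another, on chromosome 12 at 104925501 to 104926689, had 1 and 0 counts in the V5 IPs, against 87 counts in NIH3T3, a ratio of 160 (exact interval 28.0 to 6398) that rests on a single V5 count. The abundant gene on chromosome 13 at 21779883 to 21780625 (743 bases) had 431 and 410 CPM in the V5 IPs, against 1443 CPM in NIH3T3 and 1232 CPM in the input. It was the called gene nearest to the threshold (log2 −1.83, SE 0.43; edgeR adjusted p = 0.0479). The nearest gene that missed it, on chromosome 6 with 112 bases, had 2.58 and 1.15 CPM in the V5 IPs, against 47.5 CPM in NIH3T3 (edgeR adjusted p = 0.0553).

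Over the 12 genes with several exons that fell, the median log2 difference was −2.68, against −4.97 over the 7 single-exon genes. The ranges overlapped, and the 7 spanned −7.95 to −1.83. The 12 spanned −3.50 to −2.19, at NIH3T3 levels of 76.6 to 1106 CPM. Each had both V5 IPs below NIH3T3. The co-culture input minus NIH3T3 had a median log2 difference of −1.54 over these 12, and V5 IPs minus input had −0.96. For the 10 called mitochondrial genes the same medians were −0.04 and −3.37, and for the 7 single-exon genes −1.07 and −3.11. The comparisons share libraries, so these medians are values set side by side, without a test.

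The gene on chromosome 15 at 83153494 to 83172592 (4298 bases in 11 exons) was the most abundant of the 12. It had 252 and 185 CPM in the V5 IPs, against 1106 CPM in NIH3T3 and 353 CPM in the co-culture input (log2 −2.40 against NIH3T3, SE 0.42; edgeR adjusted p = 0.00238). Another, on chromosome 4 at 129811219 to 129850003, had 131 and 114 CPM in the V5 IPs, against 794 CPM in NIH3T3 (log2 −2.75, SE 0.45; edgeR adjusted p = 0.000959). Its input level of 132 CPM was that of the V5 IPs. The gene on chromosome 3 at 98013527 to 98150361 behaved alike, with 69.3 and 59.0 CPM in the V5 IPs, against 430 CPM in NIH3T3 and 92.1 CPM in the input, a log2 difference of −2.80 from NIH3T3 (SE 0.49; edgeR adjusted p = 0.0022). On chromosome 13, at 48879219 to 48968017, the V5 IPs had 23.3 and 14.3 CPM, against 148 CPM in NIH3T3 and 10.5 CPM in the input, a log2 difference of −3.02 from NIH3T3 (SE 0.65; edgeR adjusted p = 0.0233).

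In 1 gene of the 12 the co-culture input stood close to NIH3T3. It lies on chromosome 14 at 30548359 to 30574720 (7355 bases in 14 exons) and had 33.6 and 33.8 CPM in the V5 IPs, against 261 CPM in NIH3T3 and 247 CPM in the co-culture input. Its log2 difference was −3.00 against NIH3T3 (SE 0.51; edgeR adjusted p = 0.00135) and −3.13 against the input (edgeR adjusted p = 0.00126). The HA IPs had 18.9 and 17.1 CPM of it, on only 3 and 6 counts, so all 4 IPs were low, the HA IPs with little precision. The gene on chromosome 4 at 132351772 to 132353382 (log2 −3.50, edgeR adjusted p = 0.0403) shares 62.6% of its exonic bases with other genes, and its counts are uncertain. Leaving out the first V5 IP left 4 of the 31 calls, and leaving out the second left 7.

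**Figure D3:**
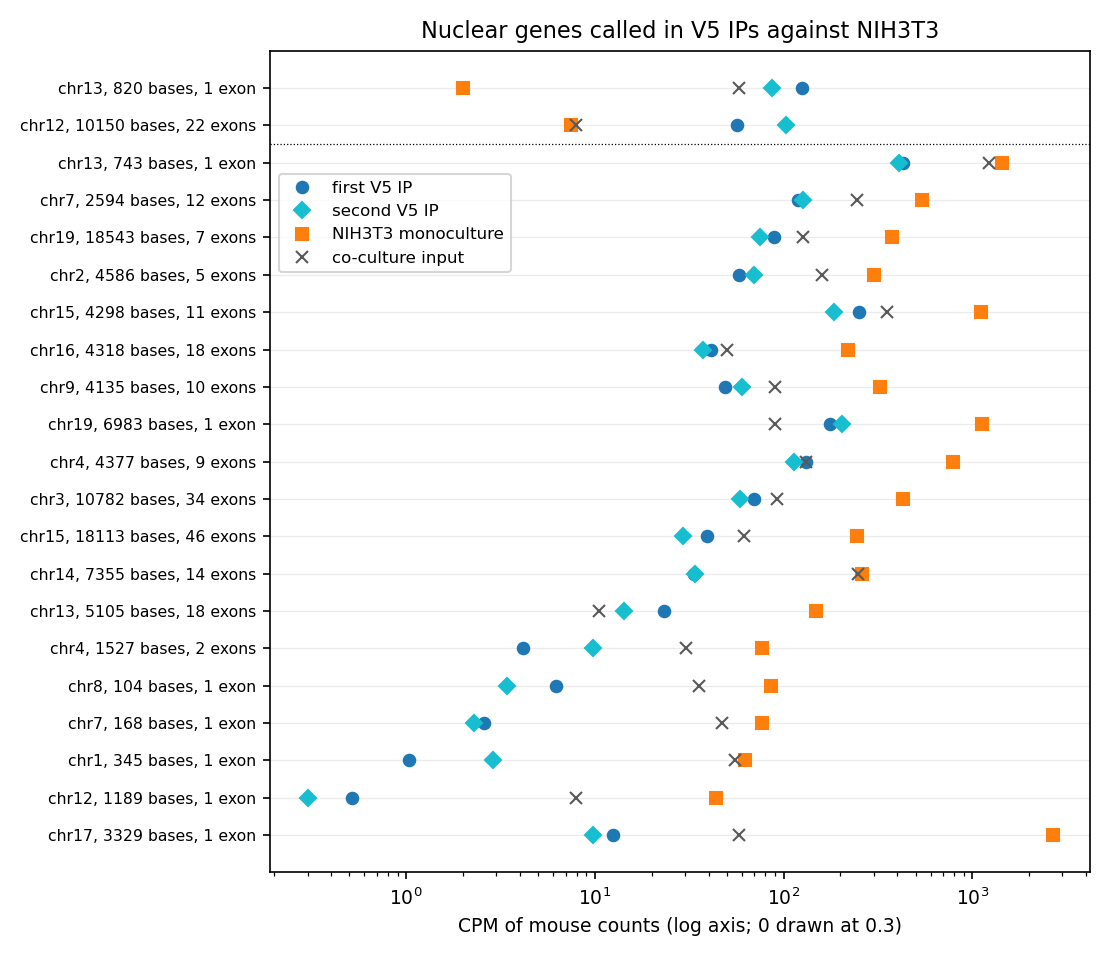
Level of the 21 called nuclear genes in CPM of mouse counts (horizontal log axis, 0 drawn at 0.3), 1 row per gene, in the first V5 IP (dark blue circles), the second V5 IP (light blue diamonds), the NIH3T3 monoculture (orange squares) and the co-culture input (crosses). The 2 genes above the dotted line are higher in both V5 IPs than in NIH3T3 and the 19 below it are lower, and the crosses lie near NIH3T3 for some genes and near the V5 IPs for others.

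Only 2 genes rose in V5 IPs over NIH3T3. The first is a single-exon gene on chromosome 13 at 23697635 to 23698454 (ENSMUSG00000060678.5, 820 bases). It had 126 and 86.6 CPM in the V5 IPs, against 2.001 CPM in NIH3T3, on 394 pooled counts in the V5 IPs and 4 counts in NIH3T3. The ratio of pooled counts was 53.5 (exact interval 20.7 to 197, counting error only), and the log2 difference was 5.60 (SE 0.92; edgeR adjusted p = 0.000959). The co-culture input held 57.9 CPM and the HA IPs 50.5 and 74.2 CPM, so every library of the co-culture lay far above NIH3T3. The input minus NIH3T3 differed by 4.99 (edgeR adjusted p = 0.0361), and V5 IPs minus input by 0.61 (edgeR adjusted p = 0.887). The call against NIH3T3 was lost when the first V5 IP was left out (edgeR adjusted p = 0.207) and held when the second was (0.0446).

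The other riser lies on chromosome 12 at 101834043 to 101913267 (ENSMUSG00000021188.14, 10150 bases in 22 exons). It had 109 and 179 counts in the V5 IPs, against 15 counts in NIH3T3, or 56.3 and 103 CPM against 7.51 CPM. The co-culture input was near NIH3T3 at 7.90 CPM, on 6 counts. Mouse counts made up only 17.9% and 22.4% of the HA IP libraries. Relative to those mouse counts, the HA IPs were higher than the V5 IPs, with 460 and 608 CPM on 73 and 213 counts. All 4 IPs were thus above both inputs. The log2 difference was 3.33 against NIH3T3 (SE 0.65; edgeR adjusted p = 0.00745) and 3.06 against the co-culture input (edgeR adjusted p = 0.031). Leaving out the first V5 IP ended the call (edgeR adjusted p = 0.0577), and so did leaving out the second (0.594). The HEK293 monoculture had 0 counts on each of the 31 called genes.

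The single-exon riser belongs to a dense stretch of single-exon genes on chromosome 13, from 21715763 to 23764406, which was looked at after its values were seen. The stretch lists 131 such genes, and 29 were tested. Several of these had under 5 counts in NIH3T3 and passed the filter on low counts through the libraries of the co-culture, so no median or tally of directions is given for them. The genes called in the stretch were the riser above and the 743-base gene above, which fell. The stretch was picked with its values known, so no rate of calls is set beside that of all genes.

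Levels within the stretch show how it was composed. The gene at 23570517 to 23571220 (704 bases) had 770 and 667 CPM in the V5 IPs, against 308 CPM in NIH3T3 and 978 CPM in the co-culture input (edgeR adjusted p = 0.623). The gene at 23531050 to 23531519 (470 bases) had 96.1 and 69.9 CPM in the V5 IPs, against 10.01 CPM in NIH3T3 (edgeR adjusted p = 0.146). Neither passed the test, though both V5 IPs were higher than NIH3T3. Summed over all 131 listed genes, the levels were 3335 and 2874 CPM in the V5 IPs, against 2607 CPM in NIH3T3 and 4547 CPM in the input. Of the NIH3T3 sum, the 743-base gene alone held 1443 CPM. Exons of other genes cover at least 20% of the bases of 7 of the 29.

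Gene structure otherwise went with small differences. Over nuclear genes, the median log2 difference was 0.12 in the shortest quintile of genes (70 to 1995 exonic bases), −0.05, −0.03 and 0.00 in the next quintiles, and 0.05 in the longest (7078 to 123179 bases). The input minus NIH3T3, in contrast, had medians of 0.16, 0.02, −0.18, −0.38 and −0.72 across the same quintiles. Genes with 2 to 5 exons had a median of 0.11 and those with 11 to 20 exons of −0.04. In the fit of only the V5 IPs and NIH3T3, 6.29% of the shortest quintile and 1.39% of the longest were higher, against 3.08% over all genes. Lower calls made up 3.76% of the shortest quintile and 4.12% of the longest, with 7.23% in the second.

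Of 6771 nuclear genes under 200 exonic bases, 37 were tested. Among these 2 fell (5.41%, beside 0.353% of all genes) and 0 rose (edgeR adjusted p under 0.05). The 2 are the genes of 168 and 104 bases already counted above among the single-exon genes that fell. In the fit of only the V5 IPs and NIH3T3, 11 of 38 were lower (28.9%, beside 4.92% of all genes) and 0 were higher (beside 3.08%). A filter on low counts kept these few, and a gene could pass it through NIH3T3 or another library while low in both V5 IPs. This can by itself raise the number of lower calls. The counts therefore describe the tested genes and not the class, and nothing is concluded from their excess over all genes. All 6771 together took 0.179% ± 0.0392 of mouse counts in the V5 IPs (SD, n = 2), against 0.281% in NIH3T3 and 0.233% in the co-culture input. Longer nuclear genes with 1 exon took 4.75% ± 0.251 in the V5 IPs, against 4.79% in NIH3T3, a difference within the spread between the V5 IPs. Genes with several exons took 94.8% ± 0.299 in the V5 IPs, against 91.96% in NIH3T3. The shares of a library add up to the whole, so a lower mitochondrial share by itself raises the others.

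**Figure D4:**
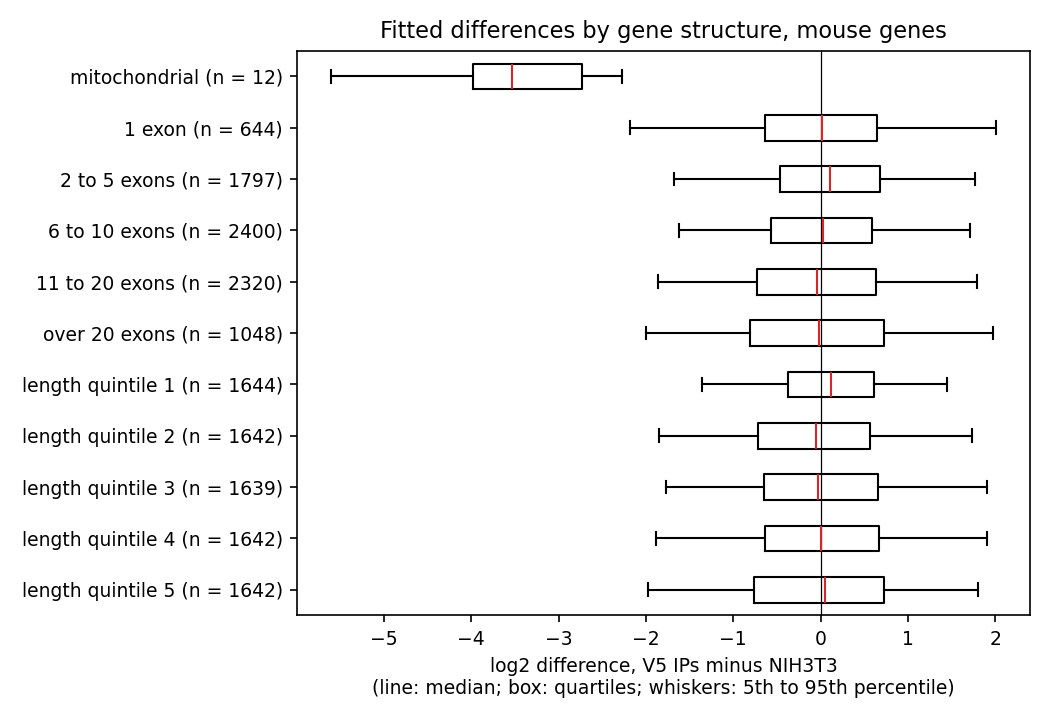
Fitted log2 differences of V5 IPs minus NIH3T3 (horizontal axis) in classes of mouse genes by chromosome, exon number and quintiles of exonic length (quintile 1 is the shortest), with lines at medians, boxes at quartiles and whiskers at the 5th and 95th percentile. The 12 mitochondrial genes tested lie below 0, and the nuclear classes are centred near 0.

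The V5 IPs did not match each other on every gene. Among the 256 genes called higher in the fit of only the V5 IPs and NIH3T3, 18 had a first V5 IP at least 4 times the second, and the second was in no case 4 times the first. Among the 409 called lower, 5 had the first at least 4 times the second and 5 the reverse. A gene on chromosome 8 at 71592176 to 71601092 had 1608 and 82.0 CPM in the V5 IPs, against 47.0 CPM in NIH3T3. The co-culture input had 1075 CPM of it, and the HA IPs 1703 and 114 CPM. A gene on chromosome 7 at 105480083 to 105482300 had 900 and 37.3 CPM in the V5 IPs, against 27.0 CPM in NIH3T3. It had 305 CPM in the input and 744 and 2.86 CPM in the HA IPs. Both were high in the first IP of either antibody and in the input, and low in the second IPs and in NIH3T3. The first V5 and the first HA IP were made on lysate 1, and the part of the lysate in these values was not tested. These genes were picked after their values were seen, neither was called across all groups, and exons of other genes cover 20.6% and 22.5% of their bases.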

How the data were processed

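The deposited files hold raw counts of reads per gene, 1 per library. Per the file headers, the authors counted with featureCounts 1.5.2, in pairs, without strand (option 0), over exons of a combined human and mouse annotation. The aligner was STAR 2.5.2, per the submitters' processing notes, which also list Trim Galore, bcl2fastq, SAMtools and hg38. Per the labels' protocols, SMART-seq cDNA went into Nextera DNA Flex libraries. Aligner settings, the mouse build and how reads that match both species were assigned: not given in the sources used here.

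Mouse genes were tested with edgeR 4.0.16 in R 4.3.3 (quasi-likelihood fit and test, two-sided, Benjamini-Hochberg adjustment over all genes tested). Library sizes were mouse counts times TMM factors, and genes were kept by filterByExpr (minimum count 10, minimum total 15). The fit held the V5 IPs, NIH3T3, the HA IPs and the co-culture input, with 2 residual degrees of freedom and a biological coefficient of variation of 44.8%. NIH3T3 has 1 library and was assumed to vary like the IPs. P-values measure only the spread between the IPs, which may be technical. SE is the log2 difference over the root of the F statistic. Exons that touch were merged, and "1 exon" means 1 merged block. Intervals are exact at 95% and cover counting error only, since reads had no molecular identifiers. Simulated data made from these libraries, with 8221 genes, gave back 61.9% of changes of 16-fold, 21.7% of those of 4-fold and 0% of those of 2-fold. Smaller changes were thus rarely detectable. Unchanged genes made up 1.82% of the calls in the simulated data. These data took NIH3T3 to vary like the IPs, so that share does not measure false calls between the real libraries.

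Named genes were to be the tested mitochondrial genes, Rpl22 and Rpl22l1, the 12 largest called in each direction at 50 CPM or more, and up to 4 called members of each gene list. The 27 gene lists, and marker lists of fibroblasts, epithelium and macrophages, were not used, since 0 mouse identifiers had a symbol in the reference tables. At most 2 identifiers per direction are printed. Members, lists and classes were chosen with earlier results of these data known. Alternatives, DESeq2 1.42.0 among them, are given with the sensitivity of the results. Tables and figures were made in Python 3.11.15 with pandas 2.3.3, numpy 2.4.6, matplotlib 3.10.9 and scipy 1.17.1.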

Additional observations from a re-analysis of the deposited data

Results flagged for a closer look

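The HEK293 monoculture, a human library that enters no comparison here, held 108 counts on 57 mouse genes. That is 0.0131% of its counts (exact 95% interval 0.0107 to 0.0158%). The highest of these genes had 12 counts there, against 626 and 706 counts in the V5 IPs and 720 in NIH3T3. None of the 108 counts lay on the 31 called genes, and with the 34 genes left out whose rate in HEK293 was over 5% of that in NIH3T3, the number of calls was again 31.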

How the results depend on the processing

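No named gene changed sign, while the median over all genes, close to 0, did. The 31 calls (2 higher, 29 lower, 10 of them mitochondrial) became 65 with no filter on low counts (10 and 55), 11 with at least 50 counts in 2 libraries (1 and 10, 6 mitochondrial) and 18 with mitochondrial genes left out (2 and 16). With only V5 IPs and NIH3T3 fitted they became 665 (256 and 409), and with both HA IPs left out, chosen after seeing the data, 673 (269 and 404). With IP order as a replicate block there were 59 (11 and 48), all 31 included. Over 2218 genes the deviations of the first V5 and first HA IP correlated at 0.348, but 2 pairs are too few to take the order as pairing. Leaving out each IP gave 4 to 648 calls, 0 to 262 higher, 4 to 390 lower and 3 to 12 mitochondrial. DESeq2 size factors (37), no further factor (32, of which 23 of the 31), DESeq2's Wald test (34, of which 25), no co-culture input (35) and length trend removed (30, of which 29) stayed within 1.5 times.

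The median log2 difference, 0.0227, was 0.0207 with DESeq2 size factors, 0.0772 with no further factor, −0.0347 with no filter, −0.0125 with the 50-count filter, 0.0206 with DESeq2's Wald test, −0.0154 with the replicate block, 0.0282 with only V5 IPs and NIH3T3, 0.0323 with no co-culture input, 0.0175 with the length trend removed, 0.0483 with both HA IPs left out, and −0.0204 to 0.0441 with single IPs left out. The mitochondrial share in V5 IPs was 0.222 to 0.234% in single IPs and 0.216% of the counts of both species. With 1 NIH3T3 library, its own spread was not measured.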

Other observations

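Among genes with 0 counts in NIH3T3, 5 had at least 10 counts in each V5 IP. On chromosome 8, at 34826460 to 34965690, the counts were 37 and 14 in the V5 IPs, 2 in the co-culture input and 4 and 2 in the HA IPs. On chromosome 2, at 122348892 to 122369162, they were 13 and 11 in the V5 IPs and 0 in the 4 other libraries with mouse cells. In the other direction, the gene with the most NIH3T3 counts and 0 in both V5 IPs lies on chromosome 15, at 98831669 to 98871204, with 41 counts in NIH3T3 and 5 in the co-culture input (log2 −7.60, edgeR adjusted p = 0.196). These genes were picked after their values were seen.

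A further gene whose first V5 IP was far above the second lies on chromosome 9, at 51943306 to 51963556. It had 353 and 21.2 CPM in the V5 IPs, against 11.5 CPM in NIH3T3, with 75.03 CPM in the co-culture input and 265 and 19.99 CPM in the HA IPs.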
